A study of Rattus norvegicus with 16 samples.

Results

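Hyperplasia of the adrenal medulla was compared with the medulla of young wild-type rats, gene by gene. The comparison used 10 of the 16 arrays of the series: all 8 arrays of medullary hyperplasia from rats of 2 months with a p27Kip1 (labelled Cdknb1) mutation, and both pools of wild-type adrenal medulla from rats of 2 months, 1 of 2 animals and 1 of 3 animals. The arrays were chosen by what the labels call the tissue and by the age. All rats were Sprague–Dawley white eye/Wistar–Kyoto. Of the hyperplasia arrays 4 were labelled female and 4 male, pool 1 was labelled male and pool 2 female. A pool averages its animals, so the spread between single wild-type rats is not seen. The other 6 arrays were 4 pheochromocytomas from mutant rats and 2 pools of older wild-type medulla, each of 2 animals. Tumours 1 to 3 were labelled female and of 8 months, and tumour 4 male and of 9 months. Older pool 1 was labelled female and of 10 months, and older pool 2 male and of 12 and 17 months. These 6 arrays entered the fit and serve below only to show where hyperplasia differed from the tumours. Neither the way the medulla was separated from the cortex nor the zygosity of the mutation is stated in the labels.

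p27Kip1, the product of Cdkn1b, binds cyclin-dependent kinases and restrains the entry of cells into the division cycle. Chromaffin cells of the adrenal medulla make, store and release catecholamines under control of the splanchnic nerve. They stem from the neural crest, as sympathetic neurons do, and rodent chromaffin cells can still divide after birth. Hyperplasia is an increase in their number that can precede a pheochromocytoma, the tumour of these cells. The account below is of genes outside the division cycle and the usual chromaffin markers, ordered by what their products do.

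Values are log2 units of deposited RMA expression, a level per probe set. A difference is the hyperplasia mean minus the mean of the pools, ± standard error, from limma fitted over all 16 arrays, and an adjusted p (Benjamini-Hochberg over all probe sets) under 0.05 passed the test. A difference of 1 is a 2-fold change. Fewer cells of a type and less RNA per cell cannot be told apart in such bulk samples. Levels of different genes are not set against each other.

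Several properties of the arrays bear on every comparison. Xist, which is transcribed from the silenced X chromosome of females, lay at 11.29 to 11.77 on hyperplasia arrays 3 to 6 and at 2.86 to 3.88 on arrays 1, 2, 7 and 8, which went against the labelled sex of arrays 1, 2, 5 and 6. It also went against the labels of both pools, at 12.14 in pool 1 and 3.21 in pool 2. By either reading each group held both sexes equally, and sex was therefore not fitted. With the Xist level as a covariate 898 genes rose and 633 fell, and without the 4 hyperplasia arrays in conflict 259 rose and 97 fell, against 771 and 493 with all arrays. Most consecutively numbered hyperplasia arrays resembled each other: across probe sets array 1 was nearest to array 2 (r = 0.9937), array 3 to array 4 (0.9949) and array 5 to array 6 (0.9957). The fourth pair did not: array 7 was nearest to array 1 (0.9924) and array 8 to array 2 (0.9931), with r = 0.989 between them. The labels call all 8 biological replicates and do not say whether any share an animal. If some did, the p-values would be too small. With each consecutive pair, the fourth included, averaged to 1 value, a fit chosen after this was seen, 540 genes rose and 290 fell. A p-value here measures the spread between these arrays.

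The tissue carried the defining markers of chromaffin cells. Chga, the granule protein chromogranin A, was 14.39 ± 0.03 in hyperplasia (SD, n = 8) and 14.39 ± 0.01 in the pools (SD, n = 2). Th, which catalyses the first step of catecholamine synthesis, was 14.03 ± 0.09 against 14.15 ± 0.15. Of the 17 chromaffin genes 3 rose (17.6%, against 5.42% of all genes), the transcription factors Gata2 (1.34) and Phox2a (1.02) and the noradrenaline transporter Slc6a2 (1.33). The dimmer probe set of Gata2 was at -0.23 and did not pass. On all arrays 7 of the 17 lay above both pools, where 12.7% of all genes did. Genes of the adrenal cortex were present in both and lower in hyperplasia: the mean of 12 cortex markers was 10.41 to 11.19 on the 8 hyperplasia arrays, against 11.57 and 11.73 in the pools. The means of the chromaffin list (17 genes, difference 0.22), the cortex list (-0.78), the adipocyte list (11 genes, -0.26) and the sympathetic neuron list (16 genes, 0.38) each kept all hyperplasia arrays outside both pools, with a two-sided p of 0.0222 in the exact permutation test, which cannot go lower with 45 splits (0.05 after Benjamini-Hochberg adjustment for the 9 cell type lists). The red blood cell mean differed by -0.34 (6 genes, exact permutation p = 0.0889), and those of macrophages and leukocytes, endothelium, fibroblasts and Schwann cells by -0.09 to 0.09 (exact permutation p = 0.289 to 0.978). RNA integrity and labelling were gauged by the hexokinase controls, whose 3′ probe set exceeded the 5′ one by 1.21 to 1.63 log2 units in hyperplasia and by 1.07 and 1.18 in the pools. On the other arrays of the fit the excess was larger, at 2.16 to 3.3 in the tumours and at 2.92 and 2.29 in the older pools. The part of cortex, fat or RNA quality in any single difference below was not tested beyond fits that held the cortex mean or this control signal as a covariate.

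**Figure D1:**
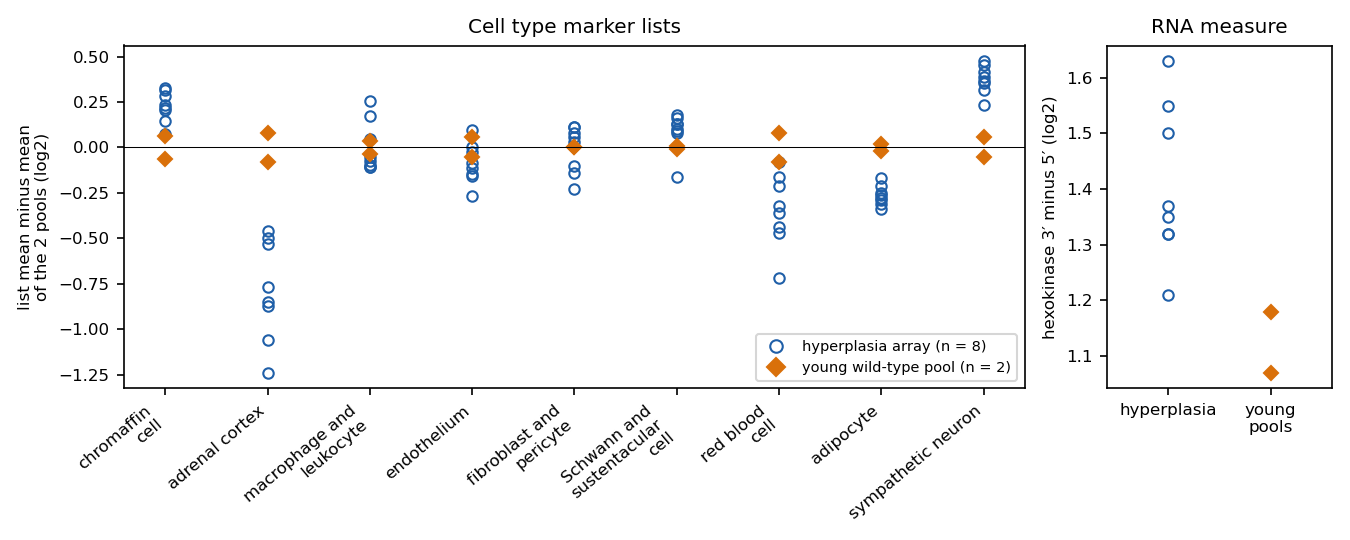
The left panel plots the mean log2 value of each cell type marker list per array, as the distance from the mean of both pools, with open circles for the 8 hyperplasia arrays and diamonds for the 2 young wild-type pools. The right panel plots the 3′ to 5′ excess of hexokinase (log2) of the same arrays. The cortex and adipocyte means lay below both pools on all 8 arrays, and the sympathetic neuron mean lay above them.

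Of 14217 genes, 1264 passed (8.89%): 771 rose in hyperplasia (5.42%) and 493 fell (3.47%). Of these, 258 differed by at least 2-fold (1.81%), 158 higher and 100 lower, and at 4-fold or more the balance was 28 higher to 5 lower. Of the 1264 genes that passed, 1228 had all hyperplasia arrays on one side of both pools. Where such a separation is described below for a gene that passed, it therefore adds little to the call. The number of calls depended on the pools and on the cortex markers. A fit with 1 pool left out compares the groups with less precision. So does a fit with the cortex mean as a covariate, since that mean did not overlap between the groups. A call lost in such a fit therefore does not show that the difference was absent or rested on 1 pool. In all such counts here, rose and fell mean that the gene passed the test. With pool 2 alone as the control 285 genes rose and 177 fell, and with pool 1 alone 192 rose and 99 fell, where the lone pool was assumed to vary like the other groups. With the cortex mean as a covariate 112 rose and 58 fell. Both with the 2 pools and with each alone, 137 genes passed (0.964%), and 104 genes (0.732%) passed in the fit described and in every one of 24 other fits that kept their probe set, 78 higher and 26 lower. Below, a gene is said to have passed in every fit only where it is among these. The others named as risen or fallen lost the call in at least 1 of the 24. Counts of the lists below are to be read beside the shares over all genes, 8.89% passed, 5.42% rose and 3.47% fell.

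The 25 largest increases outside the cell cycle and chromaffin lists ran from 4.65 to 2.02, and the 25 largest decreases from -2.62 to -1.51, chosen with the 8 hyperplasia arrays on one side of both pools; of all genes 12.7% lay above both pools and 10.9% below. Of the 25 increases 20 passed against pool 2 alone, 17 against pool 1 alone and 14 with the cortex covariate. Of the 25 decreases 6, 7 and 7 did so.

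**Figure D2:**
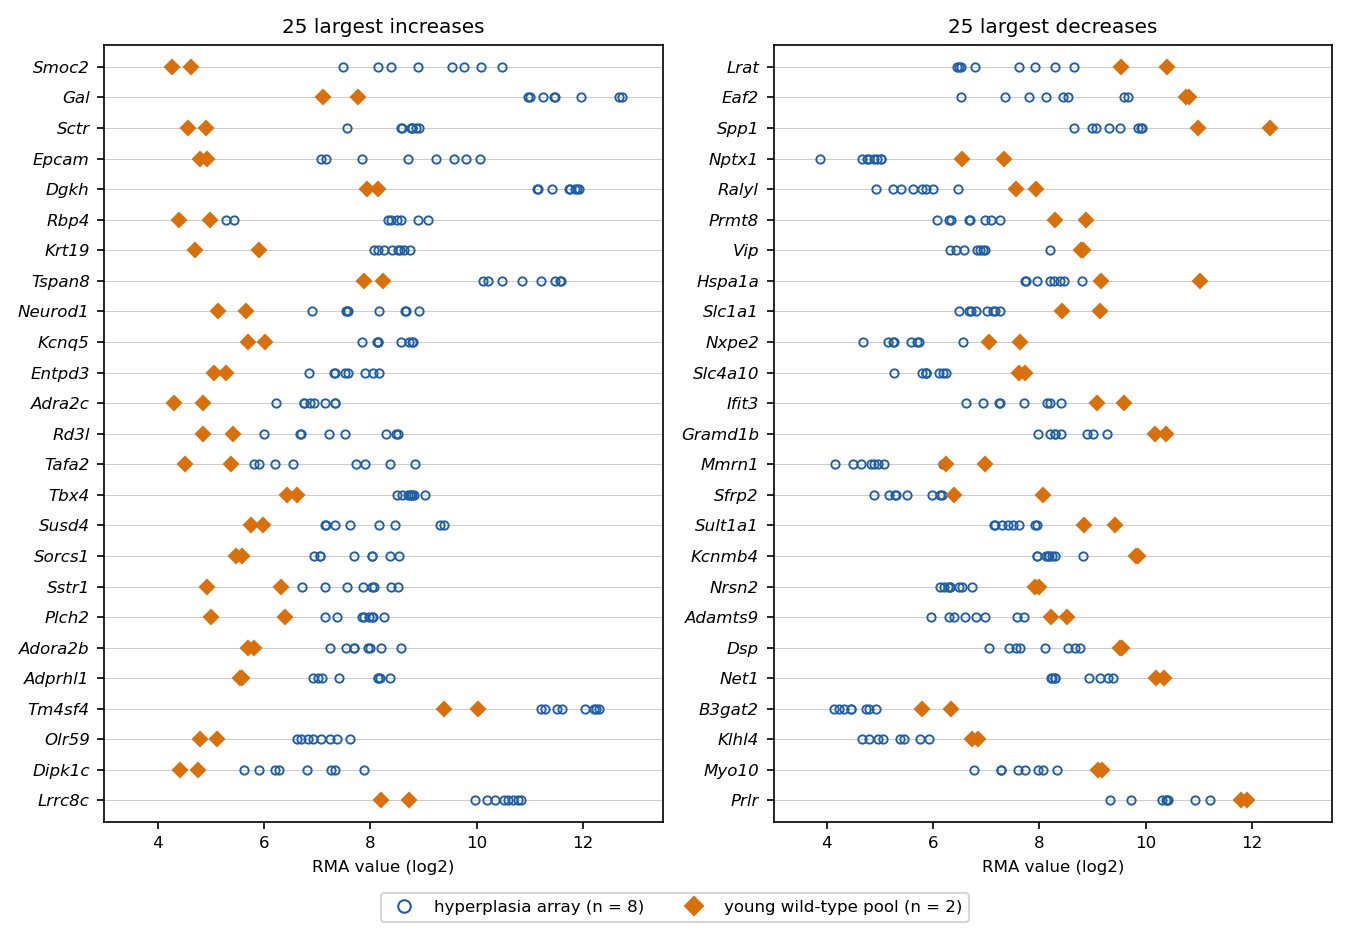
Deposited RMA values (log2) are plotted per array for the 25 largest increases (left) and the 25 largest decreases (right), with open circles for the 8 hyperplasia arrays and diamonds for the 2 young wild-type pools, ordered by the size of the difference. In every row the circles lie on one side of both diamonds; Rbp4 on the left shows 2 circles close to the pools and Hspa1a on the right shows pools that lie far apart.

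Secreted and matrix proteins held the largest increase and some of the largest decreases. Smoc2, a calcium-binding matricellular protein, lay between 7.49 and 10.48 on the hyperplasia arrays (median 9.22), against 4.28 and 4.63 in the pools. No hyperplasia array came near the pools, where the gene lay in the range under the first quartile of probe set levels (4.81), so signal over background was not shown there and no fold is given. The fitted difference was 4.65 ± 0.61 (adjusted p = 0.00044). Its probe set was 1 of 3, and the other two differed by 1.04 (adjusted p = 0.0586) and 0.12 (adjusted p = 0.796). Fbln1, which codes for the matrix protein fibulin 1, lay at 6.27 to 6.79 (median 6.41) against 4.91 and 5.03, and rose by 1.48 ± 0.13 (adjusted p = 1.7e-05). Smoc2 and Fbln1 passed in every fit. The dimmer probe set of Fbln1 differed by 0.18 and did not pass (adjusted p = 0.423 in limma).

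The matrix genes that fell had other roles. Spp1, osteopontin, a secreted phosphoprotein of bone and of macrophages, lay at 8.65 to 9.93 (median 9.40) against 10.98 and 12.34, a difference of -2.27 ± 0.55 (adjusted p = 0.0204). The pools differed from each other here by more than the hyperplasia arrays did. Fbln5, fibulin 5, a protein of elastic fibres, fell by 1.10 log2 units (adjusted p = 0.00445). Of 39 measured matricellular and matrix genes 2 rose, 5 fell and 32 did not pass, with a median of -0.08 against -0.011 over all genes; without pool 2 2 rose and 0 fell, and with the cortex covariate 2 and 2. Of 24 collagen genes 1 fell, Col25a1, a collagen of neurons, at -0.95 ± 0.22 (adjusted p = 0.0155) and below the first quartile in hyperplasia. With the cortex covariate the difference of Spp1 was -1.13.

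Among neuropeptides, which were not measured as a list, Gal, the gene of galanin, lay at 10.96 to 12.73 (median 11.47) against 7.76 and 7.11. The 8 hyperplasia arrays thus stood well clear of both pools, and the difference of 4.25 ± 0.43 (19-fold, adjusted p = 4.62e-05) passed in every fit. Galr2, a galanin receptor, rose as well, at 7.09 to 8.86 (median 8.11) against 6.36 and 5.71 (1.99 ± 0.36, adjusted p = 0.00357). Vip, vasoactive intestinal peptide, lay at 6.32 to 8.19 (median 6.86) against 8.79 and 8.81. Array 7 alone exceeded 7 on this gene, and the difference was -1.90 ± 0.35 (adjusted p = 0.00421). Npy, neuropeptide Y, fell too (-1.32 ± 0.24, adjusted p = 0.00388).

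Sctr, the receptor of secretin, a class B receptor that signals through cyclic AMP, lay at 7.56 to 8.91 (median 8.77) against 4.92 and 4.58. Array 7 was the lowest at 7.56 and the next was 8.57, still far above the pools, whose mean was below the first quartile. The fitted difference of 3.85 ± 0.35 (adjusted p = 1.65e-05) passed in every fit. Sstr1, a somatostatin receptor, lay at 6.71 to 8.53 (median 7.95) against 6.33 and 4.93 (2.16 ± 0.47, adjusted p = 0.011). Prlr, the prolactin receptor, went the other way, at 9.33 to 11.21 (median 10.38) against 11.79 and 11.91 (-1.51 ± 0.38, adjusted p = 0.0244), and its difference was -0.69 with the cortex covariate. Of 43 measured genes of class B and peptide hormone receptors 4 rose, 1 fell and 38 did not pass (median 0.03), with 4 and 0 called without pool 1 and 1 and 0 both without pool 2 and with the cortex covariate. Npy1r, a receptor of neuropeptide Y, was the fourth that rose (0.67 ± 0.13, adjusted p = 0.00725). In this receptor list 11.6% passed, against 8.89% of all genes.

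Adra2c, the alpha-2C adrenergic receptor, through which catecholamines restrain their own release, lay at 6.23 to 7.34 (median 6.91) against 4.31 and 4.86. Adora2b, an adenosine receptor, lay at 7.24 to 8.58 (median 7.82) against 5.70 and 5.82. Neither gene overlapped the pools on any array, and the differences of 2.34 ± 0.24 (adjusted p = 5.57e-05) and 2.11 ± 0.28 (adjusted p = 0.000437) passed in every fit. The pool mean of Adra2c lay below the first quartile. Entpd3, an enzyme at the cell surface that breaks down extracellular nucleotides, also rose in every fit, by 2.42 ± 0.32 (adjusted p = 0.000437). Among 70 genes of cytokines, chemokines and their receptors 1 rose and 69 did not pass, the lowest share of the 34 pathway lists at 1.43%. The riser was Cxcr4, the receptor of the chemokine CXCL12, at 10.19 to 10.85 (median 10.59) against 8.97 and 8.73 (1.72 ± 0.28, adjusted p = 0.00162). Its 2 other probe sets differed by 1.84 and 2.03.

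**Figure D3:**
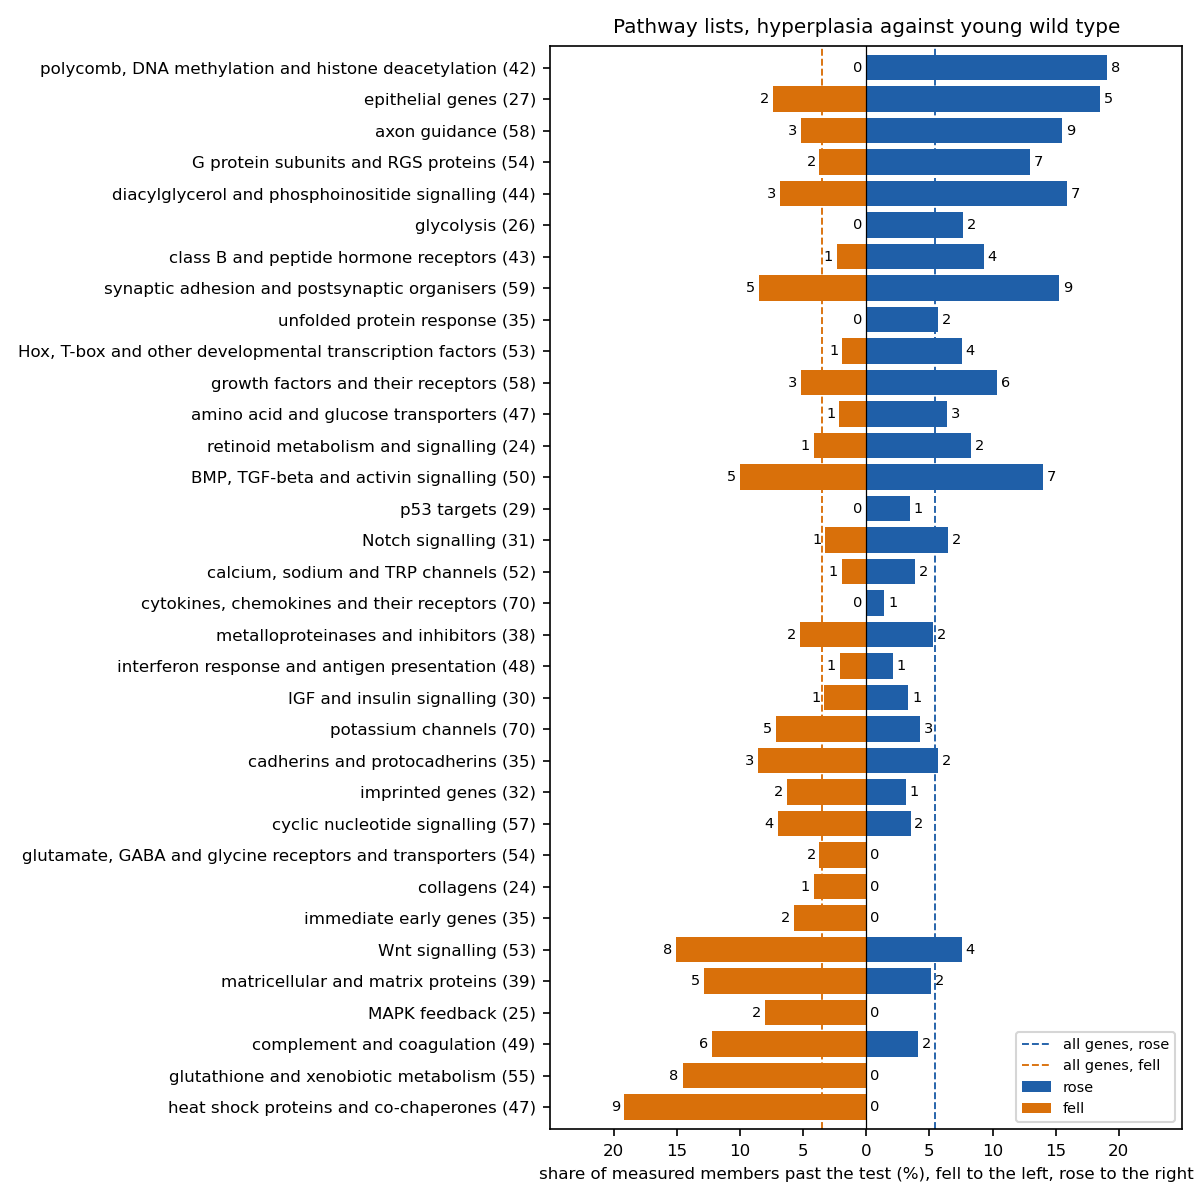
Bars give the share of the measured members of each pathway list (number measured in parentheses) that rose, to the right, or fell, to the left, with the count at the end of each bar. Dashed lines mark the same shares over all genes, 5.42% and 3.47%. No member of the heat shock list or of the glutathione and xenobiotic list rose, and no member of the polycomb and DNA methylation list fell.

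Lipid second messengers were represented by Dgkh, the eta isoform of diacylglycerol kinase, which turns diacylglycerol into phosphatidic acid. It lay at 11.14 to 11.92 (median 11.74) against 8.15 and 7.93, with the hyperplasia arrays within 1 log2 unit of each other and over 2 units above the pools. The difference was 3.57 ± 0.31 (11.8-fold, adjusted p = 1.52e-05), a second probe set differed by 4.35 (adjusted p = 1.52e-05), and the gene passed in every fit. Prkca, a protein kinase C that diacylglycerol activates, rose by 1.30 ± 0.32 (adjusted p = 0.0216). Pik3r1, the regulatory subunit of phosphoinositide 3-kinase, rose by 1.35 ± 0.27 (adjusted p = 0.00625). Plcl1, a phospholipase C relative without catalytic activity, fell, at -1.08 ± 0.29 (adjusted p = 0.0334), and was at -0.67 without pool 2 and -0.35 with the cortex covariate. Of 44 measured genes of this group 7 rose, 3 fell and 34 did not pass (median 0.09), against 5 and 1 called without pool 1, 1 and 1 without pool 2, and 1 and 0 with the cortex covariate. The share of the list that passed was 22.7%, against 8.89% of all genes. Plch2, a phospholipase C outside that list, lay at 7.15 to 8.26 (median 7.93) against 6.40 and 5.00 and rose by 2.12 ± 0.37 (adjusted p = 0.0026).

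Downstream of receptors, 7 of 54 G protein subunits and RGS proteins rose, 2 fell and 45 did not pass (median 0.09), and in 3 other fits, which left out either pool or held the cortex mean, 1 rose and 1 fell each time. The share that passed was 16.7%, against 8.89% of all genes. Gng3, a gamma subunit of neurons, rose by 0.92 ± 0.18 (adjusted p = 0.00625) and Rgs3, which speeds the shut-off of G proteins, by 0.75 ± 0.20 (adjusted p = 0.0323). The dimmer probe sets of Rgs3 were at 0.35 and -0.23 and did not pass. Gna14, an alpha subunit of the Gq class, which couples to phospholipase C, lay at 4.92 to 5.86 (median 5.47) against 6.77 and 6.74. It fell by 1.33 log2 units (adjusted p = 0.000653) and passed in every fit. Of 57 genes of cyclic nucleotide signalling 2 rose and 4 fell (median -0.04), 0 and 0 without pool 1, 0 and 2 without pool 2, and 0 and 0 with the cortex covariate. Those with the largest falls were Creb3l1, a membrane-bound transcription factor of the CREB3 family (-1.39 ± 0.35, adjusted p = 0.0225), and Crem, a cyclic AMP responsive factor (-1.20 ± 0.33, adjusted p = 0.0365). Pkia, an inhibitor of protein kinase A, rose by 0.97 ± 0.20 (adjusted p = 0.00868), and Pde9a, which breaks down cyclic GMP, by 0.89 ± 0.18 (adjusted p = 0.00756).

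In the lists of ion channels and transporters 3.7% to 11.4% of the genes passed, around the 8.89% of all genes. Kcnq5, a voltage-gated potassium channel that carries a slow current, lay at 7.85 to 8.81 (median 8.36) against 5.70 and 6.03 (2.53 ± 0.31, adjusted p = 0.00025). Kcnmb4, an accessory subunit of the calcium-activated BK channel, lay at 7.95 to 8.82 (median 8.17) against 9.86 and 9.81 (-1.62 ± 0.21, adjusted p = 0.000367). These potassium channel genes moved apart and both passed in every fit, though the 2 dimmer probe sets of Kcnq5 differed by -0.02 and -0.13 and did not pass. Kcna5, a voltage-gated potassium channel, fell by 1.5 log2 units (adjusted p = 0.00513). Of 70 potassium channel genes 3 rose, 5 fell and 62 did not pass (median -0.09), with 2 and 2 called without pool 1, 1 and 2 without pool 2, and 1 and 2 with the cortex covariate. Lrrc8c, a subunit of the volume-regulated anion channel, lay at 9.97 to 10.83 (median 10.55) against 8.73 and 8.21 and rose in every fit (2.02 ± 0.22, adjusted p = 9.41e-05).

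Of 52 calcium, sodium and TRP channel genes 2 rose, 1 fell and 49 did not pass. Scn3b, a beta subunit of sodium channels, rose by 1.03 ± 0.22 (adjusted p = 0.0115), and Cacna1b, the pore subunit of N-type calcium channels, by 0.67 ± 0.17 (adjusted p = 0.0225). Trpc5, a cation channel, fell by 1.03 log2 units (adjusted p = 0.00877). Of 54 receptors and transporters of glutamate, GABA and glycine 2 fell and 0 rose (median -0.12). Slc1a1, the glutamate and cysteine carrier EAAC1, lay at 6.49 to 7.25 (median 6.92) against 9.14 and 8.42 (-1.87 ± 0.32, adjusted p = 0.00251). Slc4a10, a sodium-coupled bicarbonate carrier of neurons, lay at 5.26 to 6.25 (median 5.86) against 7.72 and 7.61 (-1.77 ± 0.39, adjusted p = 0.0123). Among 47 amino acid and glucose transporters 3 rose and 1 fell, Slc7a5, a carrier of large neutral amino acids (-1.20 ± 0.26, adjusted p = 0.0101).

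Among genes of epithelia the largest rises were those of Epcam, Krt19 and Tspan8. Of the list 25.9% passed in either direction, against 8.89% of all genes, and the other risers were Prom1 (0.56) and Tjp1 (0.36). Krt19, a keratin of simple epithelia, lay at 8.07 to 8.74 (median 8.47) against 5.91 and 4.70. The 8 arrays spanned less than the pools did, and the difference of 3.11 ± 0.23 (8.63-fold, adjusted p = 6.29e-06) passed in every fit. Epcam, an adhesion molecule of epithelial cells, was far more variable, at 7.07 to 10.06 (median 8.97) against 4.79 and 4.93 (3.82 ± 0.68, adjusted p = 0.00315). Tspan8, a tetraspanin of epithelia, lay at 10.12 to 11.58 (median 11.03) against 8.23 and 7.89 (2.87 ± 0.46, adjusted p = 0.00163), passed in every fit and was at 1.64 with the cortex covariate. Dsp, desmoplakin, which anchors keratins at desmosomes, fell by 1.57 log2 units (adjusted p = 0.0452) and was at -0.35 with that covariate. The dimmer probe set of Dsp was at -0.09 and did not pass. Of 27 measured epithelial genes 5 rose, 2 fell and 20 did not pass, with a median of 0.00; the counts were 3 and 0 with either pool left out and 2 and 0 with the cortex covariate. The list thus did not shift as a whole, and the risers were single members of it. Tm4sf4, a membrane protein of the same superfamily as tetraspanins that the list does not hold, rose in every fit too (2.09 ± 0.31, adjusted p = 0.00101) and was at 1.39 with the cortex covariate.

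Of 59 synaptic adhesion and postsynaptic genes 9 rose, 5 fell and 45 did not pass (23.7% called against 8.89% of all genes, median 0.05). Flrt3, which binds latrophilins and Unc5 receptors, lay at 8.12 to 9.01 (median 8.65) against 6.81 and 6.49 (1.98 ± 0.21, adjusted p = 6.68e-05). L1cam, a neural adhesion molecule of growing axons, lay at 9.05 to 10.04 (median 9.80) against 7.81 and 7.84 (1.90 ± 0.21, adjusted p = 0.000115). Both passed in every fit, and on both genes every hyperplasia array exceeded both pools by over 1 log2 unit. Cbln1, a secreted organiser of synapses, rose by 1.94 ± 0.44 (adjusted p = 0.0146), was below the first quartile in the pools, and was at 1.01 with the cortex covariate. Its dimmer probe set was at 0.65 and did not pass. Nptx1, a neuronal pentraxin that clusters glutamate receptors, lay at 3.88 to 5.02 (median 4.84) against 7.33 and 6.55. It was at or near the first quartile on every hyperplasia array (-2.20 ± 0.54, adjusted p = 0.0208), and the difference was -3.43 with the cortex covariate. The list's calls were 4 higher and 0 lower without pool 1, 3 and 0 without pool 2, and 3 and 1 with the cortex covariate.

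Of 58 axon guidance genes 9 rose, 3 fell and 46 did not pass (20.7% called against 8.89% of all genes, median 0.00). Sema6a, a membrane-bound semaphorin, lay at 9.31 to 10.05 (median 9.73) against 8.14 and 8.44 (1.44 ± 0.25, adjusted p = 0.00283). Slit3, a secreted ligand of Robo receptors, rose by 1.04 ± 0.16 (adjusted p = 0.0014). Ntng1, a membrane-anchored netrin relative, fell by 1.28 log2 units (adjusted p = 0.000133) and passed in every fit. Sema3d, a secreted semaphorin, fell by 1.12 log2 units (adjusted p = 0.0222). Both directions thus occurred among semaphorins. Axon guidance calls numbered 6 higher and 1 lower without pool 1, 3 and 1 without pool 2, and 2 and 1 with the cortex covariate. Among 35 cadherins and protocadherins 2 rose and 3 fell (median 0.00): Pcdh9 rose in every fit (1.89 ± 0.25, adjusted p = 0.000437) and Pcdh8 fell (-0.93 ± 0.19, adjusted p = 0.00661). The mean of the sympathetic neuron markers was above both pools on all 8 hyperplasia arrays, as given above; its part in these lists was not tested.

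Of 58 ligands and receptors of the neurotrophin, GDNF, FGF and EGF families 6 rose, 3 fell and 49 did not pass (median -0.12). The share that passed was 15.5%, against 8.89% of all genes. Egfr, the receptor of epidermal growth factor, lay at 6.43 to 7.40 (median 6.75) against 7.94 and 8.35 (-1.39 ± 0.22, adjusted p = 0.00156). Fgfr2, a fibroblast growth factor receptor, fell by 1.22 log2 units (adjusted p = 0.0466) and was at -0.27 with the cortex covariate. Fgf13, an intracellular relative of these factors that binds sodium channels, fell by 1.48 log2 units (adjusted p = 0.0444) and was at -0.70 with it. Fgf1, a ligand of all the FGF receptors, rose by 1.35 ± 0.30 (adjusted p = 0.0128) and was at 0.72 with it. Gfra2, the neurturin co-receptor of Ret, which was not chosen by the naming rule, rose in every fit (0.81 ± 0.11, adjusted p = 0.000661). The receptors Fgfr4 (1.01) and Ngfr (0.73) and the ligands Nrg2 (0.88) and Hgf (0.67) also rose, so that receptors were found on both sides. The list held 1 rise and 3 falls without pool 1, 2 and 0 without pool 2, and 1 and 0 with the cortex covariate. Of 25 MAPK feedback genes 2 fell, Spry2 (-0.58 ± 0.10, adjusted p = 0.00211) and Spry3 (-0.50 ± 0.11, adjusted p = 0.0121), members of the Sprouty family that dampen signals from these receptors; Spry3 was below the first quartile in both groups.

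BMP and TGF-beta signalling had calls on 12 of 50 genes (24.0%, against 8.89% of all genes), 7 higher and 5 lower, with a median of -0.04. Bmp7, a ligand, lay at 7.99 to 8.56 (median 8.20) against 6.90 and 7.24 and rose in every fit (1.16 ± 0.17, adjusted p = 0.000924). Tgfb2, a ligand of the TGF-beta branch, rose by 0.95 ± 0.18 (adjusted p = 0.00489). Id2, a transcriptional inhibitor that BMP signals induce in many cells, lay at 11.11 to 11.94 (median 11.53) against 12.30 and 12.47 and fell by 0.85 log2 units (adjusted p = 0.00776). Ltbp1, which holds latent TGF-beta in the matrix, fell by 0.95 log2 units (adjusted p = 0.0134). Without pool 1 there were 5 rises and 2 falls in the list, without pool 2 1 and 0, and with the cortex covariate 1 and 3.

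Of 53 Wnt genes 4 rose, 8 fell and 41 did not pass (22.6% called against 8.89% of all genes, median -0.08). Those that fell included ligand, co-receptor and inhibitor alike: Wnt4 (-1.27 ± 0.34, adjusted p = 0.0347), whose highest hyperplasia array met pool 2 at 7.69, the co-receptor Lrp6 (-1.02 ± 0.23, adjusted p = 0.0148) and the secreted inhibitor Sfrp2. Sfrp2 lay at 4.89 to 6.17 (median 5.41) against 8.07 and 6.40. The difference of -1.68 ± 0.46 (adjusted p = 0.0368) rested in part on pool 1 and was -0.85 without it. Fzd2, a receptor, rose by 1.07 ± 0.17 (adjusted p = 0.00163). Wnt4 is also made by the adrenal cortex, whose markers were lower on the same arrays. Wnt4 and Lrp6 were at -0.70 and -0.61 with the cortex covariate. The cortex mean did not overlap between the groups, so this covariate cannot separate cortex from group, and the part of the cortex was not tested. Of the list, 1 rose and 1 fell without pool 1, 0 and 1 without pool 2, and 0 and 0 with that covariate. Of 31 Notch genes Jag2 (0.70, and 0.40 without pool 2) and Mfng (0.71) rose and Notch4 fell (-0.51). The dimmer probe sets of Notch4 were at -0.07 and 0.15 and did not pass. Of 30 IGF and insulin genes Foxo3, a transcription factor that insulin signals hold out of the nucleus, rose by 0.73 ± 0.14 (adjusted p = 0.00636). Igf2bp2, an RNA-binding protein, fell in every fit (-1.0 ± 0.14, adjusted p = 0.00061). The dimmer probe sets of Foxo3 were at -0.11 and -0.15 and that of Igf2bp2 at -0.03, and none passed.

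Among transcription factors of development, Tbx4, a T-box factor of hindlimb and lung, lay at 8.50 to 9.02 (median 8.75) against 6.44 and 6.62 and rose in every fit (2.21 ± 0.30, adjusted p = 0.000562). Hoxc4 also rose in every fit (1.22 ± 0.18, adjusted p = 0.000924), though its dimmer probe set was at 0.43 and did not pass. Meis2, a partner of Hox proteins, fell by 1.34 log2 units (adjusted p = 0.0333) and was at -0.39 with the cortex covariate. Of 53 such genes 4 rose, 1 fell and 48 did not pass (median 0.01), against 3 and 1 without pool 1, 2 and 1 without pool 2, and 2 and 0 with the cortex covariate. The share of the list that passed, 9.43%, was near the 8.89% of all genes. Neurod1, a factor of neurons and endocrine cells, lay at 6.91 to 8.91 (median 7.88) against 5.67 and 5.14 (2.59 ± 0.42, adjusted p = 0.00189).

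Chromatin regulators were a list in which all calls were increases. Of 42 genes of polycomb complexes, DNA methylation and histone deacetylation 8 rose, 0 fell and 34 did not pass (median 0.14; 5.42% of all genes rose). Uhrf1, which brings the maintenance methyltransferase to newly copied DNA, lay at 4.83 to 5.70 (median 5.37) against 3.90 and 4.47. It is also a gene of DNA replication and stands in the cell cycle list, and the pools were below the first quartile (1.09 ± 0.22, adjusted p = 0.00661). Tet3 and Tet1, which oxidise methylated cytosine, rose by 0.83 ± 0.20 (adjusted p = 0.0166) and 0.73 ± 0.21 (adjusted p = 0.0418, and 0.38 with the cortex covariate). The dimmer probe sets of Tet3 were at 0.21 and -0.35 and did not pass. Phc1, a subunit of polycomb complex PRC1, rose by 0.77 ± 0.14 (adjusted p = 0.00305). The risers thus included Uhrf1, which serves the upkeep of DNA methylation, as well as Tet1 and Tet3, which oxidise methylated cytosine. The counts fell to 2 higher and 0 lower without pool 1, 2 and 1 without pool 2, and 1 and 0 with the cortex covariate. Of 32 imprinted genes 9.38% passed, near the 8.89% of all genes. Mest rose (1.05 ± 0.22, adjusted p = 0.00817, and 0.70 with the cortex covariate), Sgce fell (-0.65 ± 0.18, adjusted p = 0.0382) and Peg10 fell, as given further below.

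Heat shock proteins had the highest share of falls among the 34 pathway lists, below that of the cortex markers, of which 3 of 12 fell. These chaperones fold new and damaged proteins, and heat shock factors raise their transcription when unfolded proteins gather. Of 47 measured heat shock proteins and co-chaperones 9 fell (19.1%, against 3.47% of all genes), 0 rose and 38 did not pass, and the median difference was -0.22. Hspa1a, the inducible Hsp70, lay at 7.73 to 8.80 (median 8.23) against 11.02 in pool 1 and 9.15 in pool 2. Hsph1, an Hsp110 that recharges Hsp70, lay at 10.80 to 11.31 (median 10.93) against 12.25 and 11.54. All hyperplasia arrays lay below both pools on either gene, but pool 1 stood apart from pool 2. The differences were -1.89 ± 0.55 (adjusted p = 0.0478) and -0.89 ± 0.20 (adjusted p = 0.0135) with both pools, and -0.96 (adjusted p = 0.51) and -0.54 (adjusted p = 0.258) without pool 1. With the cortex covariate they were -0.96 and -0.51. Hspb6, a small heat shock protein, was at -0.69 ± 0.19 (adjusted p = 0.0371; -0.32 with the cortex covariate) and Bag2, a co-chaperone, at -0.60 ± 0.12 (adjusted p = 0.00529). Without pool 1 none of the 47 fell, without pool 2 3 did, and with the cortex covariate none. The list median kept its sign after quantile normalization (-0.20) and median centring (-0.24), and was -0.09 with the cortex covariate.

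The 250 bases before the annotated start of each gene (RefSeq, GRCr8) were searched on both strands for a pair of opposed heat shock element units, GAANNTTC or TTCNNGAA, which can overlap each other. Of the 9 genes that fell 7 had such a window and 4 held a match (57.1%): Hsph1, Hspb6, Dnaja1 and Hspb8. Of the list's genes that did not pass, 9 of 30 held one, against 10.2% of the 11700 windows of measured genes. A match describes the letters and is no evidence of binding. The windows of Hsph1 (chr12:10427118-10427367, plus strand) and Hspb6 (chr1:94934122-94934371, plus strand) are shown since both genes are described above, 5′ to 3′ on the gene's strand, with the matches in capitals.
Hsph1: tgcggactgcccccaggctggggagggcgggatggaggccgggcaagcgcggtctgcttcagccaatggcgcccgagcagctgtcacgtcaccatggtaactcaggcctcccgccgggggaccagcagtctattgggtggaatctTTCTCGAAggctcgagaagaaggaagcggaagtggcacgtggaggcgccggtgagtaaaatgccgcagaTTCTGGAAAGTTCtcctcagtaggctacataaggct
Hspb6: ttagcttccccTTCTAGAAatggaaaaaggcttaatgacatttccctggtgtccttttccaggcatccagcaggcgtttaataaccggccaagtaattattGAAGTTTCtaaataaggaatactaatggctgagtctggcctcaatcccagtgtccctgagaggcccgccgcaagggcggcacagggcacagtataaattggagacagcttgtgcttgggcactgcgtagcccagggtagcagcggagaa
Hsph1 held 3 matches, of which 2 overlap, and Hspb6 held 2.

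Genes of glutathione and xenobiotic metabolism also fell without any rise. Of 55 measured 8 fell (14.5%, against 3.47% of all genes), 0 rose and 47 did not pass, with a median of -0.25. On all 8 arrays 24 of the 55 lay below both pools, where 10.9% of all genes did. Sult1a1, a sulfotransferase of phenols and catecholamines, lay at 7.14 to 7.96 (median 7.46) against 8.84 and 9.42 (-1.63 ± 0.34, adjusted p = 0.00855). Gsta4, a transferase that clears products of lipid oxidation, lay at 9.40 to 10.28 (median 10.08) against 10.79 and 10.99 (-0.96 ± 0.26, adjusted p = 0.0361). Mgst2, a membrane-bound transferase, fell by 0.93 log2 units (adjusted p = 0.0483) and Gpx2, a glutathione peroxidase, by 0.88 (adjusted p = 0.0016), the latter below the first quartile in hyperplasia. The cortex expresses several enzymes of this list, and the cortex markers were lower on the same arrays. With the cortex mean as a covariate the median was -0.09, 1 member fell, and Gsta4 and Mgst2 were at -0.44 and -0.21. The cortex mean did not overlap between the groups, so this covariate cannot separate cortex from group. The part of the cortex in these falls was not tested. Without pool 1 2 members fell and without pool 2 none.

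Few interferon genes passed between the groups, and the list set the pools apart. Of 48 genes of interferon response and antigen presentation 1 rose, Cd74, the invariant chain of class II molecules (0.50 ± 0.13, adjusted p = 0.0303), and 1 fell, Ifit3, an interferon-induced protein, which lay at 6.62 to 8.40 (median 7.48) against 9.59 and 9.08 (-1.77 ± 0.39, adjusted p = 0.0125). Pool 2 exceeded pool 1 on 39 of the 48 genes (81.2%, against 50.5% of all genes), by a median of 0.60, and by over 2-fold on 13 (27.1%, against 0.542%). Mx2, an antiviral GTPase that interferon induces, was 6.05 in pool 1 and 8.91 in pool 2, and the 8 hyperplasia arrays lay between them at 7.30 to 7.95. Irf7, a transcription factor of that response, was 8.55 and 10.46, with the hyperplasia arrays at 8.78 to 9.20. On 15 of the 48 genes all 8 arrays lay between the pools (31.2%, against 1.51% of all genes). The direction of the comparison therefore depended on the pool: against pool 2 alone 0 rose and 5 fell, among them Igtp (-1.45, adjusted p = 0.00307), and against pool 1 alone 5 rose and 0 fell, among them Mx2 (1.58, adjusted p = 0.0294). Igtp, Mx2 and Irf7 were chosen after their values were seen, and with 1 array per pool the difference between the pools has no test.

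**Figure D4:**
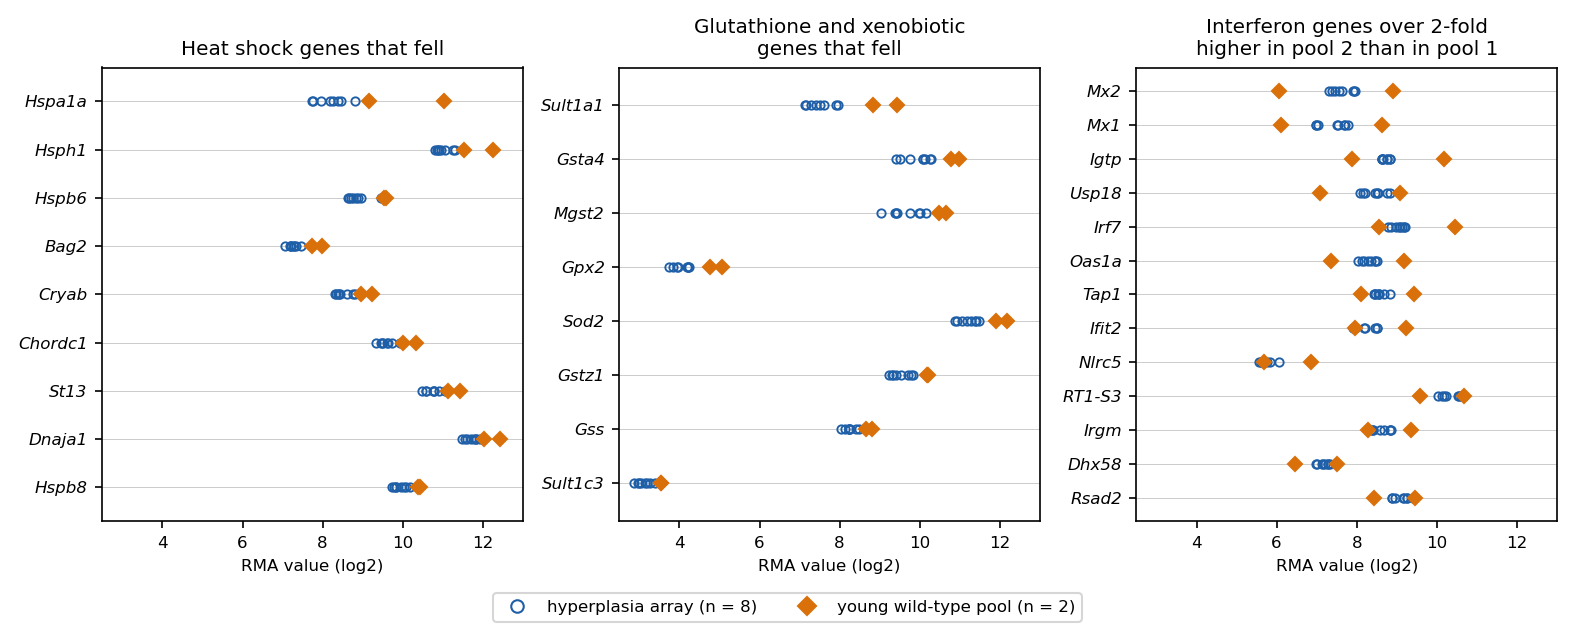
Deposited RMA values (log2) are plotted per array for the heat shock genes that fell (left), the glutathione and xenobiotic genes that fell (middle), and the 13 interferon genes over 2-fold higher in pool 2 than in pool 1 (right), with open circles for the 8 hyperplasia arrays and diamonds for the 2 pools. In the first 2 panels the circles lie below both diamonds, and in the right panel most circles lie between the diamonds.

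Of 49 complement and coagulation genes 2 rose, 6 fell and 41 did not pass (16.3% called, median -0.08), against 1 and 1 without pool 1, 0 and 1 without pool 2, and 0 and 1 with the cortex covariate. F3, tissue factor, which starts coagulation, lay at 5.87 to 6.91 (median 6.40) against 7.92 and 7.74 (-1.43 ± 0.25, adjusted p = 0.00288). Cd55, which protects cells from complement, fell by 1.27 log2 units (adjusted p = 0.0175), Procr, the receptor of protein C, by 1.24 (adjusted p = 0.0114) and C1s, a complement protease, by 0.81 (adjusted p = 0.0123; -0.51 with the cortex covariate). Metalloproteinases were split: Mmp11 (1.30 ± 0.29, adjusted p = 0.014) and Mmp15 (0.72 ± 0.16, adjusted p = 0.0116) rose, while Adamts9 (-1.58 ± 0.40, adjusted p = 0.0241) and Mme, neprilysin, which degrades peptides (-1.44 ± 0.33, adjusted p = 0.0157; -0.62 with the cortex covariate), fell, 4 of 38 in all and none with either pool left out or with that covariate.

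Other lists held few calls, at or below the share over all genes. Of 26 glycolysis genes Hk1, a hexokinase (0.46 ± 0.09, adjusted p = 0.00786), and Pdk2, which slows pyruvate oxidation (0.61 ± 0.13, adjusted p = 0.0119), rose. Of 35 genes of the unfolded protein response Ero1b, an oxidase of the endoplasmic reticulum (0.99 ± 0.28, adjusted p = 0.0413; 0.55 with the cortex covariate), and Eif2ak3, the sensor PERK (0.61 ± 0.16, adjusted p = 0.0295; 0.40 without pool 2 and 0.32 with the cortex covariate), rose. Of 29 p53 targets 1 rose, Ccng2 (0.83 ± 0.23, adjusted p = 0.0365; 0.37 with that covariate). Of 35 immediate early genes, which neural input switches on within minutes, 0 rose and 2 fell: Crem, named above, and Homer1 (-1.14 ± 0.29, adjusted p = 0.0243; -0.40 with that covariate).

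Genes of retinoid handling held the largest fall and a large rise. Lrat, the enzyme that stores retinol as its esters, lay at 6.45 to 8.65 (median 7.20) against 9.54 and 10.39 (-2.62 ± 0.62, 6.17-fold, adjusted p = 0.0174), and was at -1.08 with the cortex covariate. Rbp4, the carrier of retinol in blood, was 5.28 and 5.43 on arrays 5 and 6 and 8.33 to 9.09 on the other six, against 4.98 and 4.41 in the pools. Arrays 5 and 6 thus lay close to the pools, which were below the first quartile, and the other arrays far above (3.12 ± 0.87, adjusted p = 0.0388). Rarb, a retinoic acid receptor, rose by 0.83 ± 0.22 (adjusted p = 0.0286; 0.50 with the cortex covariate). Of the 24 measured 21 did not pass. With either pool left out none of the list's calls held.

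The hyperplasia arrays also differed among themselves, and the most variable genes followed the array pairs. Ppp1r17, a regulator of protein phosphatases, was 4.63 and 5.26 on arrays 3 and 4 and 8.82 to 9.85 on the other six, against 9.92 and 9.68 in the pools. Cartpt, which codes for a neuropeptide precursor, was 8.30 and 8.87 on arrays 3 and 4 and 10.74 to 11.38 on the others. RT1-CE16, a class I histocompatibility gene, was 6.44 and 7.21 on arrays 5 and 6 and 9.00 to 9.98 on the others, against 9.91 and 10.03. Each of these genes thus stood apart on a single consecutive pair. Immediate early genes varied as well: Fos was 11.03 and 10.96 on arrays 3 and 4 and 7.09 to 9.06 elsewhere. Nr4a1 was 10.40 to 10.91 on arrays 3 to 6 and 7.03 to 8.00 on arrays 1, 2, 7 and 8, the same division as for Xist. Egr1 was lowest on arrays 7 and 8, at 9.11 and 9.65, and 11.52 to 12.77 on the others. Genes of this family are switched on within minutes when cells are stimulated. Fabp6, Scgb1c1, Epcam and Eaf2 completed the 10 genes with the highest SD among those above the median level, and of the 10 only Epcam and Eaf2 passed the comparison with the pools.

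**Figure D5:**
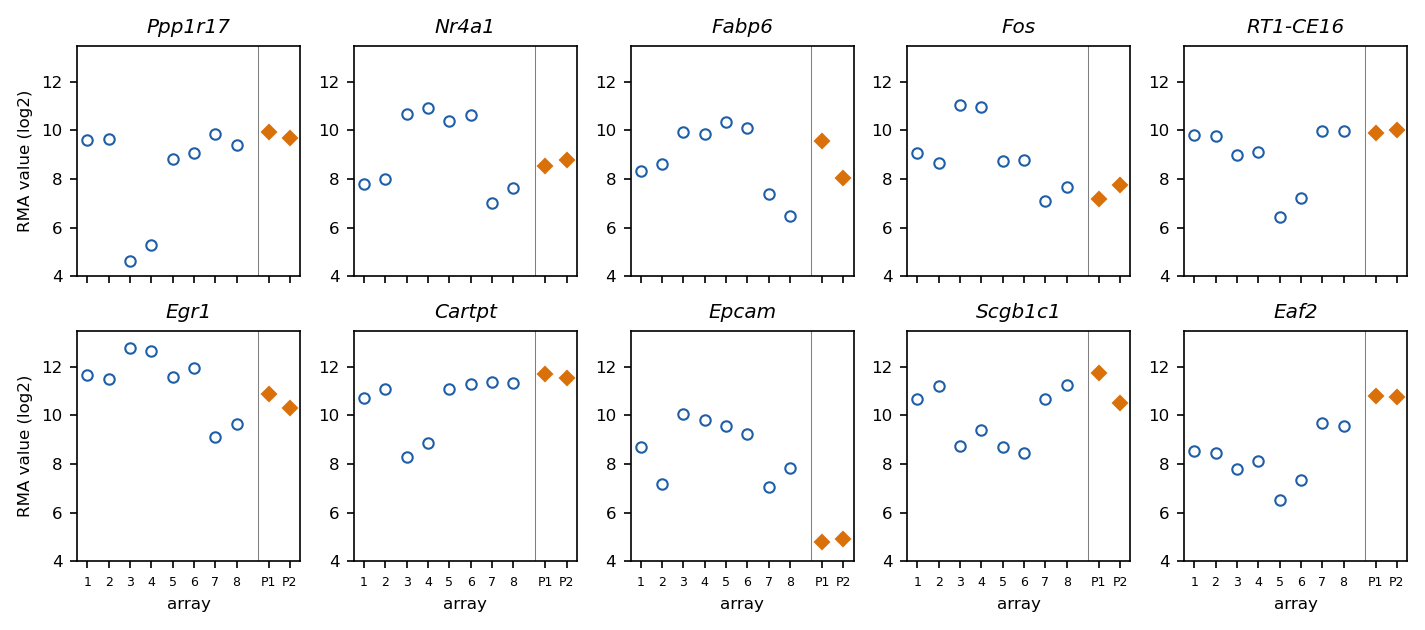
Deposited RMA values (log2) of the 10 most variable genes above the median level are plotted for hyperplasia arrays 1 to 8 (open circles) and young wild-type pools 1 and 2 (diamonds, P1 and P2). Neighbouring arrays 1 and 2, 3 and 4, 5 and 6, and 7 and 8 lie close together in most panels; arrays 3 and 4 stand apart on Ppp1r17, Cartpt and Fos, and arrays 5 and 6 on RT1-CE16.

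Cdkn1b itself lay at 11.58 to 11.86 (median 11.67) on the hyperplasia arrays against 11.04 and 10.89 on its brighter probe set (0.73 ± 0.11, adjusted p = 0.00101). Its dimmer probe set differed by -0.81 ± 0.26 and did not pass (adjusted p = 0.0676). The position of these probe sets along the mutated transcript was not analysed here, so the values do not check the genotype. In the order of genes of GRCr8, the 10 measured genes on each side of Cdkn1b held 3 calls among 20 (15.0%) and the 25 on each side 4 among 50 (8.0%), against 8.89% of all 14167 placed genes. A wider window of 50 genes on each side held 9 of 100 (9.0%), and whole chromosomes ranged from 7.33% to 11.4%. The 4 neighbours were Lrp6, named above, Lmo3, a LIM-only transcription factor (1.08 ± 0.24, adjusted p = 0.0114), Atf7ip, a chromatin cofactor (0.70 ± 0.14, adjusted p = 0.00758), and Bcl2l14, a Bcl-2 relative (-0.40 ± 0.11, adjusted p = 0.0386, and -0.26 without pool 1). The dimmer probe sets of Atf7ip were at 0.17, 0.01 and 0.03 and did not pass.

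The effect in hyperplasia was set against that in pheochromocytoma, and the difference of the effects was tested. Hyperplasia was taken relative to the young wild-type pools, which had the same age, and the tumours relative to the older pools. Both older pools came from rats of a higher age than those with tumours, as given above. The part of age in the tumour effect was not tested. It passed for 2 of 14217 genes (0.0141%). Peg10, an imprinted gene derived from a retrotransposon, lay at 3.42 to 3.69 (median 3.53) in hyperplasia against 4.60 and 4.96, with the means of both groups below the first quartile. It fell by 1.24 log2 units in hyperplasia (adjusted p = 1.52e-05) and differed by -0.18 in the tumours (adjusted p = 0.347), and the effects differed by 1.06 (adjusted p = 0.0404). Pals2, a scaffold protein of cell polarity, was at -0.40 in hyperplasia (adjusted p = 0.0704) and rose by 0.79 in the tumours (adjusted p = 0.00225), and the effects differed by 1.19 (adjusted p = 0.047). Its other 4 probe sets were at 0.12 to 0.27 in hyperplasia and did not pass. For all other genes named here the difference of the effects did not pass, which does not show that the effects were equal. Sema6a (0.00), Spry2 (-0.01), Egfr (-0.10), Kcna5 (-0.10) and Cd55 (0.05), chosen after their values were seen, passed in hyperplasia with differences near 0 in the tumours, and for these the difference of the effects had an adjusted p of 0.188 to 0.293 in limma.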

How the data were processed

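RNA of each sample was hybridised to a 1-colour Affymetrix rat array. The authors deposited log2 expression values normalized by RMA, per the submitters' processing notes; its version and which arrays were normalized together are not given in the sources used here. The values ran from 2.41 to 14.54. Of 31099 probe sets 57 controls were left out, 20826 of the rest had 1 gene symbol in the platform annotation, 436 had several and 9780 none. For each of 14217 genes the brightest probe set, by its mean over the 16 arrays, gave the value. Genes that passed had 712 other probe sets, of which 577 had the same sign. Of the 712, 171 passed the same way and 1 passed the opposite way. Not every dimmer probe set of a named gene is given above. Those that did not pass included probe sets of Adamts9 (0.09), Ero1b (0.03), Hk1 (0.16), Sstr1 (0.67 and -0.13), Galr2 (0.83) and Gna14 (-0.56).

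limma 3.58.1 (R 4.3.3; lmFit and eBayes) was fitted to all 16 arrays in 4 groups, since the shared spread is then better estimated, with no covariate and Benjamini-Hochberg adjustment over 31042 probe sets. The procedure was tested on simulated data. List means of cell types were compared by exact permutation tests (two-sided). The number of arrays, and above all the 2 pools, limits the precision. In addition 24 alternatives were run, 1 of them chosen after seeing the data.

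The genes named were the 25 largest changes per direction with all 8 arrays outside both pools, leaving out cell cycle and chromaffin genes. Added to these were up to 4 passing members of each of 34 pathway lists, up to 3 of each of 9 cell type lists, the 10 most variable genes, genes whose effects differed from the tumours, and Cdkn1b with its neighbours. Members and lists were chosen with earlier results of these data known. Promoter letters are from RefSeq, GRCr8.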

Additional observations from a re-analysis of the deposited data

Results flagged for a closer look

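On 10 of 162 named genes 1 hyperplasia array lay far from the other seven, and chance alone puts about 1 in 20 such groups on this list. Array 7 was the one apart on 5 genes: Sctr was lowest there at 7.56 (next array 8.57), L1cam at 9.05 (9.62) and Mmp15 at 8.46 (8.83), and Vip was highest there at 8.19 (6.98) and Kcnmb4 at 8.82 (8.29). On each of these 5 genes array 7 was the array nearest to the pools. Hspb6 was highest on array 8 at 9.46 (next 8.96). Mmrn1, multimerin 1 of platelets and endothelium, was highest on array 3 at 6.19 (5.08). Nptx1 was lowest on array 4 at 3.88 (4.66), Slc4a10 on array 5 at 5.26 (5.80), and Slc7a3, a carrier of basic amino acids, on array 1 at 6.00 (6.24).

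The tumour effect minus the hyperplasia effect passed the limma test of the difference for Peg10, at 1.06, and for Pals2, at 1.19.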

How the results depend on the processing

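Against 771 genes higher and 493 lower in hyperplasia, the replicate number as a block gave 203 and 96, a covariate for the cortex markers 112 and 58, leaving out the hyperplasia arrays whose Xist went against the label 259 and 97, and averaging consecutive arrays 540 and 290. Leaving out 1 array at a time gave 192 to 848 higher and 99 to 597 lower, lowest without pool 2. The replicate numbers did not pair the samples: deviations of same-numbered arrays correlated at -0.076 and 0.053. Genes whose effects differed between hyperplasia and tumours, 2 in the report, numbered 4 after quantile normalization. They numbered 1 with labelled sex, without the 30% dimmest probe sets and with the 3′ minus 5′ covariate. They numbered 0 with median centring, array weights, the replicate block, the cortex covariate, the mean of all probe sets, consecutive averaging and without the arrays in conflict with Xist. Leaving out 1 array gave 0 to 2. Averaged over its probe sets, Cdkn1b was at -0.04 and Pals2 at 0.07, both reversed, where the probe sets differ in sign. Of 153 named genes past the threshold, 66 kept the call with the block, 42 with the cortex covariate, 61 without pool 1, 48 without pool 2 and 113 in consecutive pairs; the cause was not tested. The call was kept by 153 with the Xist covariate and 152 with median centring, which gave 686 higher and 536 lower.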

Other observations

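Several genes in no list above passed in every fit; they were chosen after their values were seen, for small adjusted p-values in limma. Asic4, a member of the acid-sensing ion channel family, lay at 10.17 to 10.63 on the hyperplasia arrays (median 10.26) against 8.25 and 8.68 in the pools (1.85 ± 0.16, adjusted p = 1.52e-05). Kif26b, an atypical kinesin, lay at 11.16 to 11.69 (median 11.35) against 9.66 and 9.70 (1.72 ± 0.15, adjusted p = 1.52e-05). The 8 arrays of both genes were closer to each other than to either pool.

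Tox, a nuclear HMG-box factor known from lymphocytes, lay at 9.44 to 10.41 (median 10.05) against 8.11 and 8.02 (1.96 ± 0.21, adjusted p = 8.6e-05). Bcl2l11, the proapoptotic protein Bim, lay at 9.39 to 9.76 (median 9.55) against 8.45 and 7.87 (1.40 ± 0.16, adjusted p = 0.000115). Parva, an adaptor between integrins and actin, lay at 10.71 to 11.69 (median 11.47) against 9.38 and 9.36 (1.99 ± 0.24, adjusted p = 0.000188). On these 3 genes all hyperplasia arrays lay above both pools. Usp27x, a deubiquitinase that has been described to stabilise Bim, lay below both, at 8.16 to 8.60 (median 8.51) against 9.74 and 9.90 (-1.40 ± 0.16, adjusted p = 0.000168).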
